A study of Mus musculus with 16 samples.

Results

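Brain transcript levels of 32 genes of the pathway that makes sterols and isoprenoids were described in female mice, by branch of the pathway and over the 4 groups of genotype and treatment. The genes were taken by symbol from the deposited count table, where they are 32 of 55487 genes, and all 32 were among the 18609 genes tested. They comprised 6 enzymes from acetyl-CoA to the isoprenoid building blocks, 2 isoprenoid synthases and 12 enzymes from the synthesis of squalene to that of cholesterol. The others were 7 genes of the SREBP control system and 5 genes of cholesterol turnover and traffic.

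RNA of bulk brain was sequenced from 16 mice with 4 in each group. All mice were on a C57BL/6J background and carried the human CETP gene as a transgene driven by its own promoter. CETP moves cholesteryl esters and triglycerides between lipoproteins, and evacetrapib is a small molecule that inhibits it. CETPtg mice carried this transgene alone, and APPtg/CETPtg mice carried in addition human APP751 with the Swedish and Indiana mutations under the Thy1 promoter, which is active in neurons. Both transgenes were heterozygous. Mice of each genotype received evacetrapib at 30 mg/kg per day by intraperitoneal injection for 11 weeks or its Kolliphor EL-glucose vehicle, and all ate a diet with 1% cholesterol that began at 11 weeks of age. Neuronal markers summed to between 7116 and 8321 CPM, counts scaled to the size of the library, in every mouse, and oligodendrocyte markers to between 3491 and 5329 CPM. Other tissue varied more between mice, with choroid plexus markers at 9.73 to 456 CPM and pituitary markers at 1.04 to 852 CPM. Libraries held 21391335 to 55453789 counts. The median was lower in the APPtg/CETPtg groups (24992987 under vehicle, 23110676 under evacetrapib) than in the CETPtg groups (35195746 and 36574277). In bulk tissue, fewer cells of a type and less RNA per cell cannot be told apart, and the Illumina numbers that the labels give the libraries run in a separate block for each group, so they cannot be told apart from genotype or treatment.

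The mevalonate pathway turns acetyl-CoA into isoprenoid units, which become either the prenyl groups that anchor proteins in membranes or squalene, the first committed precursor of sterols. The brain makes its own cholesterol because lipoproteins of the blood do not cross the blood-brain barrier. When membranes of the endoplasmic reticulum are low in sterol, SCAP escorts the SREBP transcription factors to the Golgi, where 2 proteases release them to activate genes of the pathway. INSIG proteins hold the SCAP-SREBP complex back when sterols are abundant.

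SREBPs bind sterol regulatory elements, often beside a CCAAT box bound by NF-Y. The 250 bases upstream of the start were available for 27 of the 32 genes from RefSeq on GRCm38.p6, and both strands were searched. Fdps, Fdft1, Sqle, Npc1 and Stard4 were not available. The motif TCACNCCAC was in 1 of these 27, Hmgcs1, against 1.22% of 27025 genes. Other forms of the sterol regulatory element were not searched. The CCAAT box was in 23 of 27 (85.2%), against 37.5% of genes. The 4 without one were Acat2, Scap, Mbtps1 and Mbtps2. The upstream stretches of 3 genes are shown, of the gene with the motif TCACNCCAC, of a gene that was higher in APPtg/CETPtg mice and of one that was lower. Each is printed 5′ to 3′ on the strand of its gene, with motif matches in capitals (CCAAT reads ATTGG where it lies on the other strand). No match of one motif overlapped a match of the other. Hmgcs1 lies on the plus strand at chr13:119690101-119690350, Mvk on the plus strand at chr5:114444019-114444268 and Ggps1 on the minus strand at chr13:14063489-14063738.
Hmgcs1: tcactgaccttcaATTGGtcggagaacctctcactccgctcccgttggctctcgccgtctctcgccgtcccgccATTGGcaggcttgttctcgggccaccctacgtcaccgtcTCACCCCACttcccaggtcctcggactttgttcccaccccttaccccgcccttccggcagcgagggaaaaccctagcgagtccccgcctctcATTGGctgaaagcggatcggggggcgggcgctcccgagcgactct
Mvk: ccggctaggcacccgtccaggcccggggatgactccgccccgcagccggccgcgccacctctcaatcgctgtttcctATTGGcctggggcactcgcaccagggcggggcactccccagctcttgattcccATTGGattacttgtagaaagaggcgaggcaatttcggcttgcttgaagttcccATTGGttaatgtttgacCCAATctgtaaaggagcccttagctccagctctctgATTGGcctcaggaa
Ggps1: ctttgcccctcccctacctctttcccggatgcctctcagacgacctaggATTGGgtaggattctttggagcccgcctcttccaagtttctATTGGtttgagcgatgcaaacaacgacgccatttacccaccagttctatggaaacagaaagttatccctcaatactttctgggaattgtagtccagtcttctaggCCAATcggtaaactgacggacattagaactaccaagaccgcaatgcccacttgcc
Hmgcs1 held 1 match of TCACNCCAC and 3 CCAAT boxes, Mvk 5 CCAAT boxes and Ggps1 3. A match is a description of the letters and was not tested as a binding site. Ggps1, which was lower in APPtg/CETPtg mice, had as many CCAAT boxes as Hmgcs1, whose level was not called.

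Levels differed widely between genes. Per exon length, expressed as TPM computed here, the median over 16 mice ran from 317 TPM for Cyp46a1 to 9.33 TPM for Lbr. Cyp46a1, the neuronal enzyme that makes 24S-hydroxycholesterol and so removes cholesterol from brain, ranged only from 286 to 340 TPM. Hmgcs1, the synthase that makes HMG-CoA, followed with a median of 195 TPM, and Srebf2, the SREBP that mainly drives sterol genes, with 174 TPM. The ranges of Hmgcs1 (176 to 241 TPM) and Srebf2 (166 to 197 TPM) overlapped, while Cyp46a1 lay above both in every mouse. Fdft1, squalene synthase, had a median of 89.9 TPM and Insig1 83.1 TPM, and their ranges overlapped as well. The other 27 genes had medians of 66.5 TPM (Scap) or less. Neighbours in the order from Scap to Lbr overlapped in range throughout. Among branches, the median gene was highest in SREBP control (56.0 TPM) and in the mevalonate branch (48.5 TPM), and lower in the turnover (27.9 TPM), isoprenoid (27.0 TPM) and sterol branches (25.1 TPM). Levels per length used all annotated exons of a gene.

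**Figure D1:**
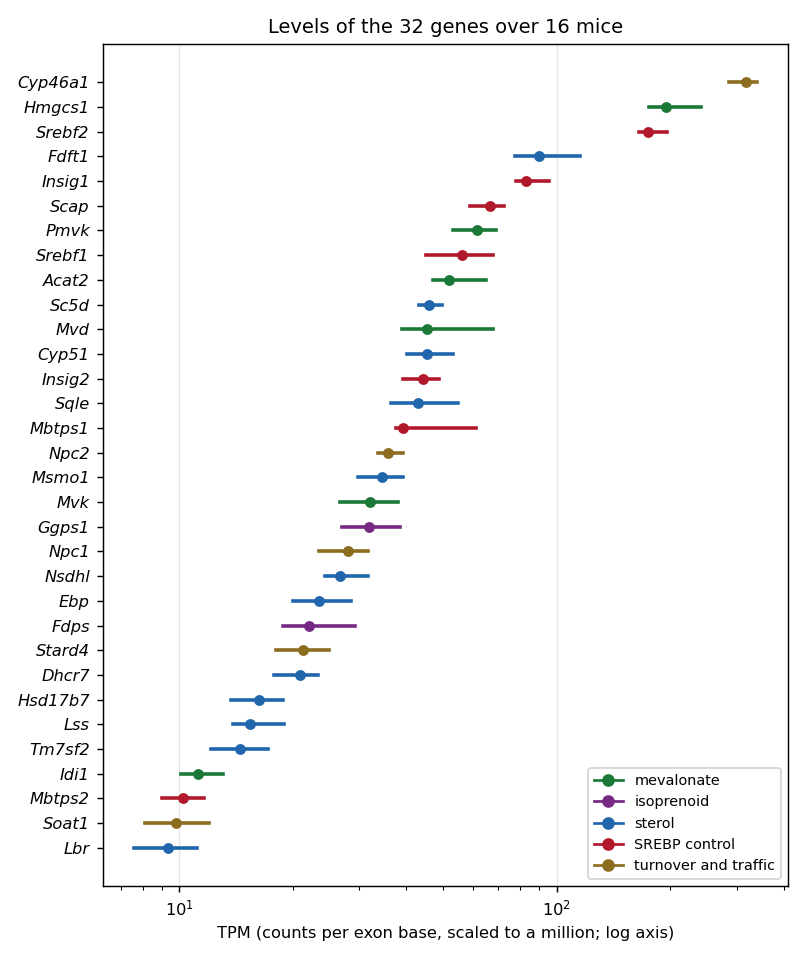
Level per exon length in TPM (log axis) of each of the 32 genes, where the dot is the median and the bar the range over 16 mice, coloured by branch. Cyp46a1 lies highest at a median of 317 TPM and Lbr lowest at 9.33 TPM, and most neighbouring genes overlap.

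Evacetrapib was compared with vehicle to ask whether CETP inhibition altered these transcripts in brain. None of the 32 genes was called in any of the 4 evacetrapib comparisons. Calls required an adjusted p no larger than 0.05 in edgeR's quasi-likelihood test, together with a difference of 5% or more. Over all mice, 0 of 32 were called where 2 of 18609 genes (0.0107%) were. At an unadjusted p under 0.05 there were 2 genes of 32 (6.25%), against 7.91% of all genes. By DESeq2 and limma-voom the number called was also 0. The log2 fold changes ran from -0.24 for Mbtps1 to 0.076 for Hsd17b7, with 22 genes below 0 (50.8% of all genes were) and 10 above, and a median of -0.018 against -0.0015 over all genes. For 31 of the 32 genes the 95% interval lay within 0.25 of 0 on the log2 scale. The exception was Mbtps1, with a lower bound of -0.42.

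None of the 3 genes at the isoprenoid branch point passed the test. Fdps, which makes farnesyl diphosphate, was measured at 21.5, 22.0, 23.6 and 20.7 CPM in CETPtg vehicle mice and at 22.3, 24.3, 25.6 and 22.1 CPM in CETPtg evacetrapib mice. In APPtg/CETPtg mice it was at 26.8, 32.5, 25.9 and 22.6 CPM under vehicle and at 25.4, 31.3, 23.2 and 26.8 CPM under evacetrapib. Treated and untreated mice overlapped in both genotypes, and the log2 fold change over all mice was 0.048 ± 0.068 (SE, adjusted p = 0.918 by edgeR). Fdps shares 1124 of its exon bases (26.7%) with the overlapping gene Gm43738 on the same strand, so its counts are uncertain. Ggps1, which lengthens farnesyl to geranylgeranyl diphosphate for protein prenylation, changed by -0.0015 ± 0.045 (adjusted p = 0.998 by edgeR). Fdft1, which commits farnesyl diphosphate to sterols, changed by -0.040 ± 0.059 (adjusted p = 0.922 by edgeR). The 95% intervals were -0.094 to 0.19 for Fdps, -0.095 to 0.092 for Ggps1 and -0.16 to 0.084 for Fdft1.

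The smallest p under evacetrapib belonged to Mbtps1, the site-1 protease that makes the first cut in SREBPs. It was at 108, 107, 154 and 168 CPM in the 4 CETPtg vehicle mice, and at 107, 111, 105 and 104 CPM under evacetrapib. In APPtg/CETPtg mice it was at 107, 145, 111 and 105 CPM under vehicle and at 103, 106, 102 and 110 CPM under evacetrapib. Thus 3 vehicle mice stood at 145 to 168 CPM, while the other 5 vehicle mice, at 105 to 111 CPM, lay near the 8 treated mice, at 102 to 111 CPM. The log2 fold change was -0.24 ± 0.086 (adjusted p = 0.495 by edgeR). Lss, which closes squalene epoxide into lanosterol, was next at -0.12 ± 0.047 (adjusted p = 0.555 by edgeR). Treated and vehicle mice overlapped for Lss, whose group means were 46.1 ± 2.49 and 42.5 ± 2.24 CPM (SD, n = 4) in CETPtg vehicle and evacetrapib mice and 45.8 ± 5.35 and 42.3 ± 1.38 CPM in the corresponding APPtg/CETPtg mice. The next 6 by p were Acat2 (-0.090 ± 0.051), Srebf1 (-0.096 ± 0.060), Hsd17b7 (0.076 ± 0.056), Lbr (0.072 ± 0.059), Sqle (-0.067 ± 0.066) and Mbtps2 (-0.046 ± 0.045), with adjusted p-values of 0.696 to 0.865 by edgeR. Acat2 is the cytosolic thiolase that starts the pathway, and Sqle the epoxidase that acts on squalene. Srebf1 encodes the SREBP forms of which the main one drives fatty acid genes, while Lbr and Hsd17b7 carry late sterol reductase activities.

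Within CETPtg mice 0 of 32 genes were called, as were 0% of all genes by this test, with 1079 genes (5.8%) at an unadjusted p under 0.05. The 2 members at that level were Mbtps1 (-0.33 ± 0.12) and Srebf1 (-0.18 ± 0.082). Within APPtg/CETPtg mice 0 of 32 were called against 0.043% of genes, and Acat2 alone reached an unadjusted p under 0.05, as 9.01% of all genes did (-0.15 ± 0.071, adjusted p = 0.548 by edgeR). The 20 synthesis enzymes had a median log2 fold change of 0.033 in CETPtg mice, with 6 below 0 (50.9% of all genes), and of -0.061 in APPtg/CETPtg mice, with 16 below 0 (50.4%). The difference between the evacetrapib effects of the genotypes was itself tested, and 0 of 32 genes were called (0% of all genes, with 1271, or 6.83%, at an unadjusted p under 0.05 and 0 of the 32 among them). The smallest p was that of Sqle, whose effect was lower in APPtg/CETPtg mice by -0.23 ± 0.12 (adjusted p = 0.739 by edgeR). Fdft1 (-0.19 ± 0.11), Msmo1 (-0.17 ± 0.10), Npc1 (0.13 ± 0.080) and Hsd17b7 (-0.17 ± 0.11) followed, with adjusted p-values of 0.753 to 0.774 by edgeR. The 95% interval for Sqle, -0.49 to 0.035, was wide. Only 9 of the 32 intervals for this difference lay within 0.25 of 0.

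Genes around the pathway were counted from lists. None was called under evacetrapib among 15 fatty acid and other SREBP targets, 17 genes of prenyl transfer, dolichol and ubiquinone, 9 of sterol transport and esters, and 8 of sterol-dependent degradation. The gene of smallest p in each was Acly (-0.090 ± 0.035), the citrate lyase that supplies cytosolic acetyl-CoA, Rabggta (-0.11 ± 0.043), a subunit of the Rab prenyltransferase, Osbpl2 (-0.062 ± 0.036), a sterol transfer protein, and Pgrmc1 (-0.069 ± 0.034), with adjusted p-values of 0.535 to 0.705 by edgeR. With the treatment 6 of 6 endothelial and 5 of 5 mural markers had log2 fold changes above 0, with medians of 0.30 and 0.48, and 1 mural marker, Myh11, was called. Their part in the values of the pathway was not tested.

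**Figure D2:**
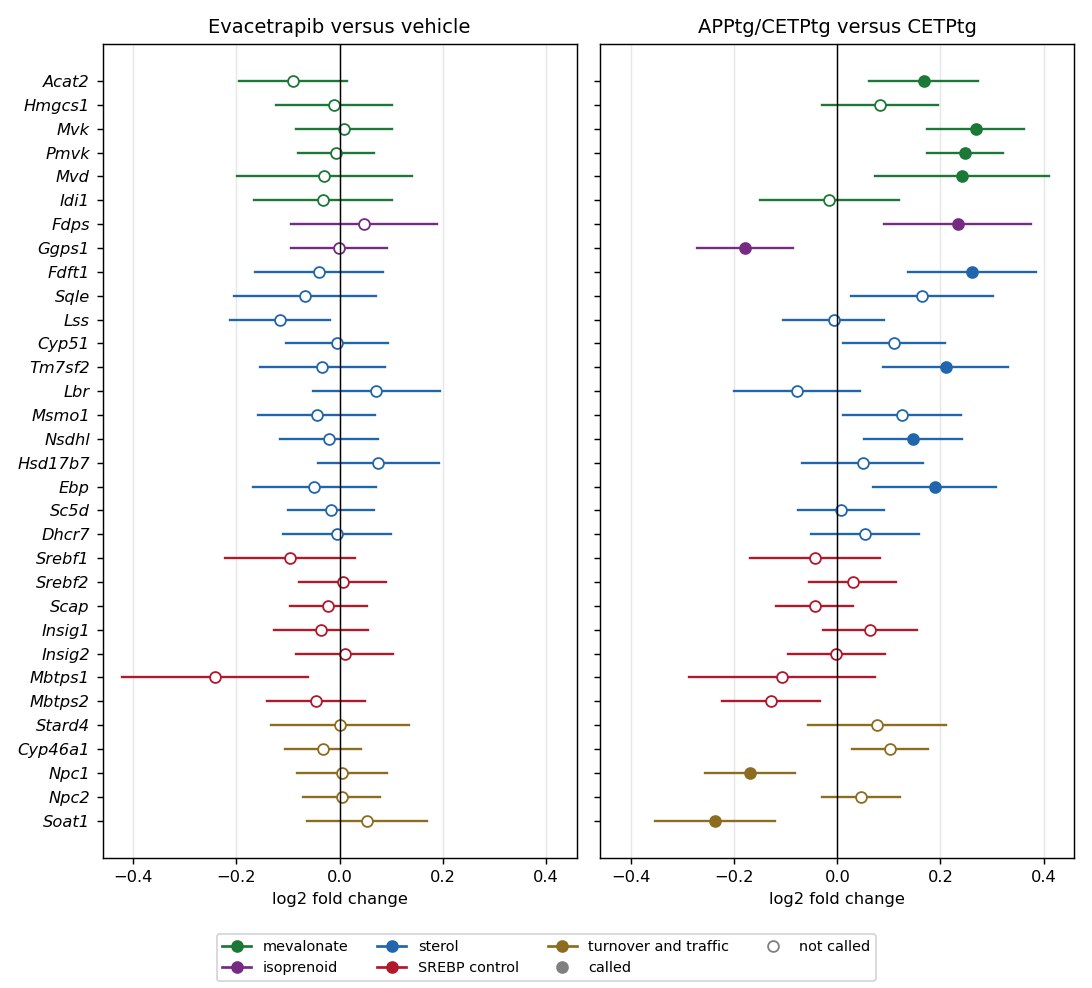
Log2 fold change of each of the 32 genes for evacetrapib versus vehicle (left) and APPtg/CETPtg versus CETPtg (right) over all 16 mice, with 95% intervals. Filled dots were called. None is filled on the left, and 12 are on the right, of which 9 lie above 0 and 3 below.

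Genotype was compared over both treatments. Of the 32 genes, 12 (37.5%) were called between APPtg/CETPtg and CETPtg mice, against 17.7% of all genes. Of these, 9 were higher in APPtg/CETPtg mice, where 9.35% of all genes were, and 3 were lower, where 8.38% were. All 9 that rose were among the 20 enzymes of synthesis, and the 3 that fell were Ggps1, Npc1 and Soat1. The 20 synthesis enzymes had a median log2 fold change of 0.14, against 0.0046 over all genes, whereas the 7 SREBP control genes had a median of -0.043 and 0 were called. These differences were small, with fold changes of called genes between 0.848 for Soat1 and 1.20 for Mvk.

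In the mevalonate branch 4 of 6 enzymes were called, and all 4 were higher. Mvk, mevalonate kinase (chr5:114444269-114460591), was at 21.2, 21.5, 21.2 and 18.6 CPM in CETPtg vehicle mice and at 19.6, 22.1, 21.1 and 19.6 CPM in CETPtg evacetrapib mice. In APPtg/CETPtg mice it was at 26.0, 26.0, 23.8 and 22.9 CPM under vehicle and at 23.3, 26.4, 24.8 and 25.8 CPM under evacetrapib. Each of the 8 APPtg/CETPtg mice lay above each of the 8 CETPtg mice, and the log2 fold change was 0.27 ± 0.045 (adjusted p = 0.00052 by edgeR). Pmvk, phosphomevalonate kinase (chr3:89454541-89469013), which acts next, was at 23.1, 25.8, 24.5 and 25.3 CPM in CETPtg vehicle mice and at 24.5, 26.4, 25.3 and 24.4 CPM in CETPtg evacetrapib mice. It was at 29.4, 29.8, 29.3 and 31.2 CPM in APPtg/CETPtg vehicle mice and at 29.0, 30.7, 27.9 and 29.0 CPM under evacetrapib. The genotypes again did not overlap, and the log2 fold change was 0.25 ± 0.035 (adjusted p = 0.000144 by edgeR). Mvk and Pmvk were the only members with this separation over all mice, which 1.74% of all genes showed in the higher direction. In the lower direction 0 of the 32 did, against 1.3%.

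Mvd, the decarboxylase after Pmvk, was higher by 0.24 ± 0.081 (adjusted p = 0.0448 by edgeR), and Acat2 by 0.17 ± 0.051 (adjusted p = 0.0269). Both overlapped between genotypes. Mvd in APPtg/CETPtg vehicle mice ran from 22.5 to 33.5 CPM, where the mouse at 33.5 CPM stood apart, and without it (mouse S6) the log2 fold change was 0.16 with an adjusted p of 0.0749 by edgeR. Mvd was called in 5 of 16 fits that each left out 1 mouse, and Acat2 in 9, and limma-voom did not call Mvd. Hmgcs1 (0.083 ± 0.054) and Idi1 (-0.016 ± 0.064), the isomerase that balances the isoprenoid units, were not called.

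**Figure D3:**
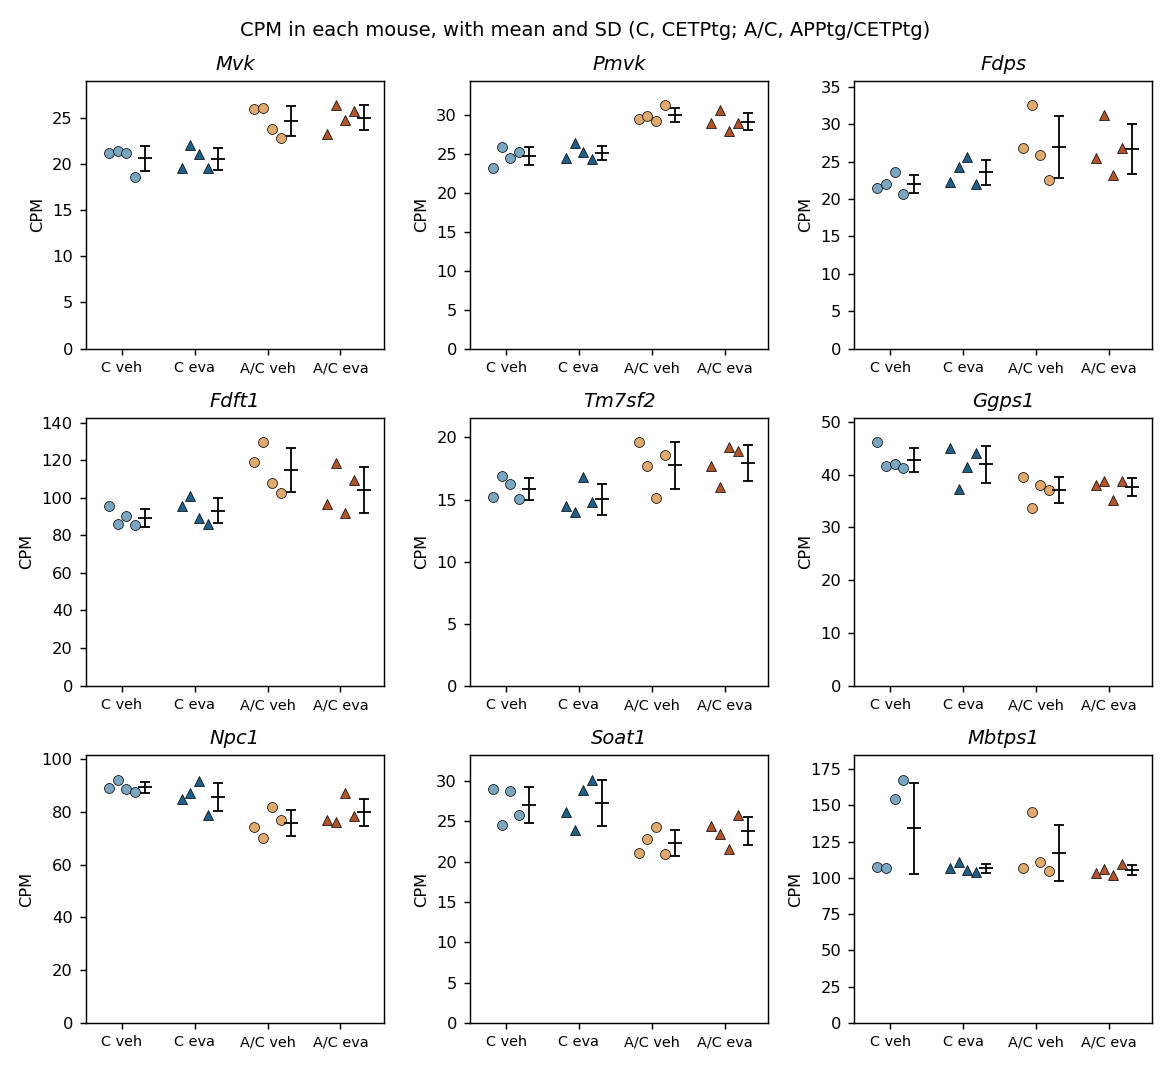
CPM of 9 genes in each of the 16 mice by genotype and treatment, with mean and SD beside the points. Mvk and Pmvk separate the genotypes in every mouse, Ggps1, Npc1 and Soat1 are lower in APPtg/CETPtg mice with overlap, and 3 vehicle mice stand high for Mbtps1.

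The isoprenoid synthases differed in direction. Fdps was higher in APPtg/CETPtg mice by 0.23 ± 0.068 (adjusted p = 0.0223 by edgeR), although 3 of the 8, at 22.6 to 25.4 CPM, lay within the CETPtg range of 20.7 to 25.6 CPM. Ggps1 (chr13:14050659-14063488) was at 46.1, 41.7, 42.0 and 41.2 CPM in CETPtg vehicle mice and at 45.1, 37.3, 41.3 and 44.1 CPM in CETPtg evacetrapib mice. It was at 39.5, 33.7, 38.0 and 37.2 CPM in APPtg/CETPtg vehicle mice and at 38.1, 38.8, 35.2 and 38.7 CPM under evacetrapib. Only 1 CETPtg mouse, at 37.3 CPM, fell into the APPtg/CETPtg range, and the log2 fold change was -0.18 ± 0.045 (adjusted p = 0.00839 by edgeR). Ggps1 shares 257 exon bases (5.4%) with Arid4b on the opposite strand.

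In the sterol branch 4 of 12 enzymes were called, and all 4 were higher. Fdft1 (chr14:63145150-63179578) was at 95.7, 85.8, 90.2 and 85.7 CPM in CETPtg vehicle mice and at 95.4, 101, 89.3 and 86.1 CPM in CETPtg evacetrapib mice. It was at 119, 129, 108 and 103 CPM in APPtg/CETPtg vehicle mice and at 96.6, 119, 91.9 and 110 CPM under evacetrapib. The vehicle mice of the genotypes did not overlap and the treated mice did, and the log2 fold change over all mice was 0.26 ± 0.060 (adjusted p = 0.00491 by edgeR). Fdft1 shares 774 exon bases (18.3%) with Ctsb on the opposite strand. As the strand setting of the counting is not given, its counts are uncertain too. Tm7sf2, a sterol C14-reductase, was higher by 0.21 ± 0.058 (adjusted p = 0.0168 by edgeR) and shares 532 exon bases (12.1%) with Vps51 on the same strand, so its counts are uncertain. Ebp, the sterol isomerase, was higher by 0.19 ± 0.057 (adjusted p = 0.0275), and Nsdhl, which removes C4 methyl groups, by 0.15 ± 0.045 (adjusted p = 0.0316). With 1 mouse left out at a time, Ebp was called in 8 of 16 fits and Nsdhl in 7. Sqle (0.16 ± 0.066), Cyp51 (0.11 ± 0.048) and Msmo1 (0.13 ± 0.055) had unadjusted p-values under 0.05 and adjusted p-values of 0.0938 to 0.123 by edgeR. Lss (-0.0076 ± 0.047), Sc5d (0.0061 ± 0.040), Dhcr7 (0.054 ± 0.050), Hsd17b7 (0.049 ± 0.056) and Lbr (-0.078 ± 0.059) were nearer to 0.

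None of the SREBP control genes was called by the edgeR fit that gave the other calls. Srebf2 differed by 0.030 ± 0.040, Srebf1 by -0.043 ± 0.060, Scap by -0.044 ± 0.036, Insig1 by 0.062 ± 0.044 and Insig2 by -0.0022 ± 0.045. Mbtps1 differed by -0.11. Mbtps2, the protease of the second cut, came closest at -0.13 ± 0.045 (adjusted p = 0.0569 by edgeR). It shares 2867 exon bases (28.4%) with Yy2 on the same strand, so its counts are uncertain. Mbtps2 was called lower by DESeq2, by edgeR with DESeq2 size factors or with at least 10 counts required in every mouse, and in 4 of 16 fits that each left out 1 mouse. With GC and length trends removed its sign turned, to 0.026 ± 0.037.

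In turnover and traffic 2 of 5 genes were called, both lower. Soat1, which esterifies cholesterol for storage (chr1:156424525-156474331), was at 29.0, 24.5, 28.8 and 25.7 CPM in CETPtg vehicle mice and at 26.2, 23.9, 28.9 and 30.2 CPM in CETPtg evacetrapib mice. It was at 21.1, 22.8, 24.3 and 20.96 CPM in APPtg/CETPtg vehicle mice and at 24.4, 23.4, 21.6 and 25.8 CPM under evacetrapib. The genotypes overlapped over all mice but not under vehicle, and the log2 fold change was -0.24 ± 0.056 (adjusted p = 0.00579 by edgeR). Npc1, which exports cholesterol from lysosomes, averaged 89.4 ± 2.06 CPM (SD, n = 4) in CETPtg vehicle mice and 75.9 ± 4.87 CPM in APPtg/CETPtg vehicle mice. Under evacetrapib the means were 85.8 ± 5.32 and 79.9 ± 5.11 CPM. Over all mice Npc1 differed by -0.17 ± 0.042 (adjusted p = 0.00803 by edgeR). Npc1 shares 511 exon bases (4.5%) with Rmc1 on the opposite strand. Npc2 (0.046 ± 0.036), the lysosomal partner of Npc1, was not called by the edgeR fit that gave the other calls. Nor were the sterol carrier Stard4 (0.076 ± 0.064) and Cyp46a1 (0.10 ± 0.035, adjusted p = 0.0524 by edgeR). Cyp46a1 was called higher by DESeq2, by limma-voom, by edgeR with at least 10 counts required in every mouse, and in 2 of 16 fits that each left out 1 mouse.

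Split by treatment, the genotype difference was called for 7 of 32 genes under vehicle (10.4% of all genes) and for 2 of 32 under evacetrapib (2.99%). Under vehicle Pmvk, Fdft1, Mvk and Acat2 were higher (5.98% of all genes) and Npc1, Soat1 and Ggps1 lower (4.42%), and under evacetrapib Mvk and Pmvk were higher (1.27%). The 4 against 4 mice did not overlap for 8 genes in the higher direction under vehicle (9.62% of all genes) and for 3 in the lower (7.33%). Under evacetrapib they did not overlap for Mvk and Pmvk, both higher (5.6% of all genes), and for 0 genes in the lower direction (5.16%). The median log2 fold change of the 20 synthesis enzymes was 0.18 under vehicle and 0.049 under evacetrapib (-0.0012 and 0.0089 over all genes). These medians were not compared by a test. Fdft1 was higher by 0.36 ± 0.080 under vehicle and by 0.16 ± 0.080 under evacetrapib, and Mvk by 0.25 ± 0.065 and 0.28 ± 0.065. The test of the difference between treatments is the one given above, in which 0 of 32 genes were called, so the lower count under evacetrapib was not shown to be a difference. Both comparisons drew on groups of 4.

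Other measures moved with genotype. Of 10 oligodendrocyte markers, all 10 had log2 fold changes below 0 in APPtg/CETPtg mice, 6 of them called (8.38% of all genes were called lower), with a median of -0.24. Their sum ran from 4422 to 5329 CPM in CETPtg mice and from 3491 to 4771 CPM in APPtg/CETPtg mice. Of 8 astrocyte markers, 4 were called lower and 1 higher (9.35% of all genes), with a median of -0.22. Oligodendrocytes and astrocytes are major makers of sterols in brain. The part of the astrocyte markers in the values of the pathway was not tested. With the mean log2 level of the oligodendrocyte markers as a term, 3 genes were called, Mvk (0.22 ± 0.059), Pmvk (0.25 ± 0.049) and Soat1 (-0.28 ± 0.075), against 5.27% of all genes. Fdps was at 0.079 ± 0.079 and Fdft1 at 0.16 ± 0.075 in that fit. Also no longer called were Tm7sf2 (0.26 ± 0.077), Ebp (0.18 ± 0.078), Mvd (0.17 ± 0.11), Acat2 (0.084 ± 0.064) and Nsdhl (0.084 ± 0.059). The same held for Ggps1 (-0.18 ± 0.061) and Npc1 (-0.094 ± 0.051). Without the term Tm7sf2, Ebp and Ggps1 were at 0.21, 0.19 and -0.18, with smaller standard errors. The other genes that lost their call had larger differences without the term.

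**Figure D4:**
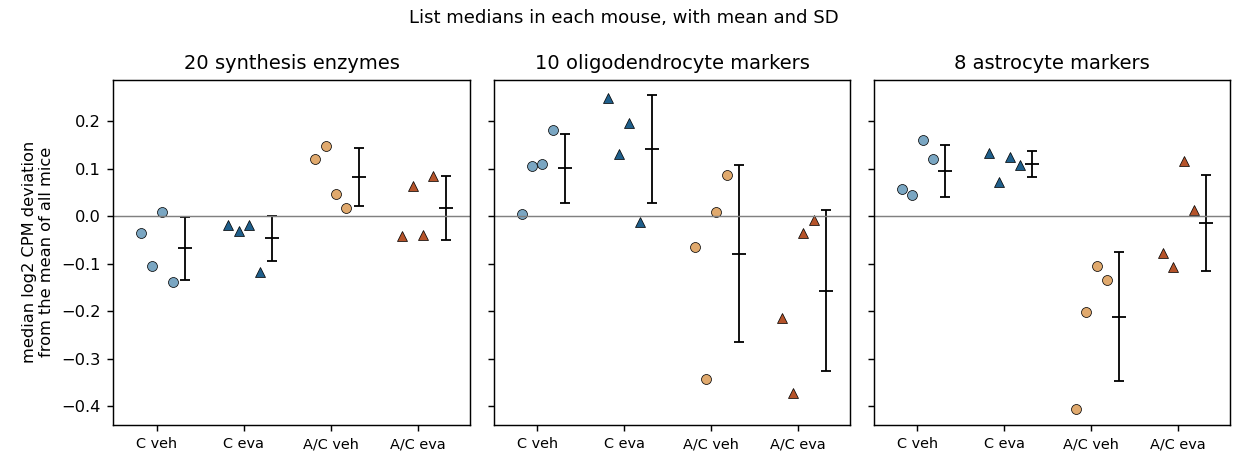
Median over each gene list of the log2 CPM deviation from the mean of all mice, 1 point a mouse, with mean and SD by group. The 20 synthesis enzymes lie higher in APPtg/CETPtg mice without overlap under vehicle. Under evacetrapib the genotypes overlap, with APPtg/CETPtg mice E (-0.042) and G (-0.040) below CETPtg mice A, B and C. Under vehicle the 10 oligodendrocyte markers lie lower with overlap, and the 8 astrocyte markers lie lower without overlap.

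Base composition also moved with genotype. Across 18583 genes the genotype log2 fold change correlated with transcript GC content at r = 0.31, and across the 32 genes at r = 0.45, where the points share the same libraries. The trend of expression with GC was above 0 in 7 of 8 APPtg/CETPtg mice, with APPtg/CETPtg evacetrapib mouse E at -0.0091 log2 units for 10 percentage points of GC, and below 0 in 7 of 8 CETPtg mice, with CETPtg evacetrapib mouse B at 0.062. Among called genes, Mvk (58.5% GC), Mvd (59.2%), Pmvk (55.5%) and Tm7sf2 (55.4%) are rich in GC, and Ggps1 (43.2%), Soat1 (44.9%) and Npc1 (47.1%) are poor in it. Nsdhl, called higher, is also poor in GC (45.5%). Srebf1 (59.4% GC, log2 fold change -0.043), Srebf2 (57.1%, 0.030), Scap (55.3%, -0.044) and Cyp46a1 (56.2%, 0.10) are rich in GC and were not called. Mbtps2 (41.9%, -0.13) and Msmo1 (44.1%, 0.13) are poor in it and were not called. With each mouse's trends with GC and exon length removed, an alternative chosen after seeing the data, 5 of 32 genes were called against 7.87% of all genes. These were Pmvk (0.17 ± 0.031), Mvk (0.20 ± 0.044), Fdft1 (0.24 ± 0.063), Msmo1 (0.21 ± 0.053) and Nsdhl (0.17 ± 0.049), all higher. None of the 3 lower genes was called then, with Soat1 at -0.14 ± 0.050 (adjusted p = 0.0972 by edgeR), Ggps1 at -0.094 ± 0.037 (adjusted p = 0.127) and Npc1 at -0.087 ± 0.040 (adjusted p = 0.188). Of the higher genes, 5 were no longer called, with Fdps at 0.21 ± 0.071, Tm7sf2 at 0.17 ± 0.057, Ebp at 0.17 ± 0.058, Acat2 at 0.14 ± 0.053 and Mvd at 0.15 ± 0.081 (adjusted p-values of 0.0673 to 0.26 by edgeR). The median of the 20 synthesis enzymes was 0.16 in that fit and 0.14 without the correction. The correlation with GC across the 32 genes was then 0.078.

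**Figure D5:**
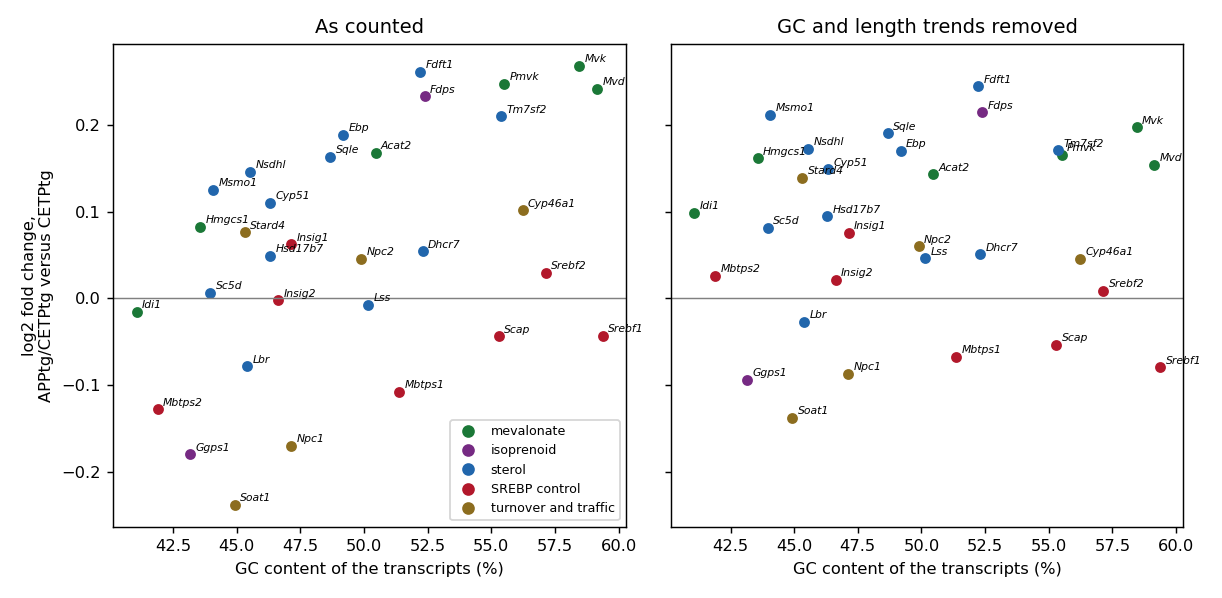
Genotype log2 fold change of the 32 genes against the GC content of their transcripts, as counted (left) and with each mouse's GC and length trends removed (right), coloured by branch. The correlation across genes is weaker on the right (r = 0.45 and 0.078), most enzymes stay above 0, and Ggps1, Soat1 and Npc1 lie nearer to 0.

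Around the pathway, where the background was again 9.35% of all genes higher and 8.38% lower, the genotype comparison called 2 higher and 2 lower of 15 fatty acid and other SREBP targets, with Scd1, the stearoyl-CoA desaturase, at -0.33 ± 0.048. It called 2 higher and 3 lower of 17 genes of prenyl transfer, dolichol and ubiquinone, led by Rce1 (0.18 ± 0.049), a protease that trims prenylated proteins. Of 9 sterol transport genes 3 were higher, with Stard3, a late endosomal sterol carrier, at 0.21 ± 0.038. None of 8 genes of sterol-dependent degradation was called, and Erlin1 had the smallest p (0.10 ± 0.046). The medians of these lists were 0.00068, 0.014, -0.034 and -0.0036, against 0.14 for the synthesis enzymes.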

How the data were processed

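Bulk brain RNA of 16 female mice was sequenced by the authors from poly(A)-enriched, directional libraries. Per the labels and methods, reads were trimmed with Trimmomatic 0.39, aligned to mm10 with STAR 2.7.8a and counted per gene with HTSeq; the HTSeq version, annotation and strand setting are not given in the sources used here. The authors deposited raw counts for each gene, and 0 columns were left unmapped.

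The 18609 genes that reached 10 counts in 4 or more mice were normalized by TMM and tested two-sided by quasi-likelihood in edgeR 4.0.16 (R 4.3.3), with Benjamini-Hochberg adjustment over all of them. Genotype and treatment were terms of the model over all mice, and group means were fitted for the within-group comparisons and the interaction. CPM used TMM library sizes. TPM, GC content and overlaps used GENCODE M21 exons, where 55141 of 55487 gene identifiers matched. The fits were tested on simulated counts. Replicates of a group differed beyond counting noise (chi-square over degrees of freedom at least 4.59 in 24 pairs). DESeq2 1.42.0 and limma 3.58.1 served as alternatives. GC and length trends were natural splines with 4 degrees of freedom in each mouse.

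The 32 genes and the other lists were chosen with earlier results of these data known. All 32 genes have levels, and full statistics are given for Fdps, Ggps1, Fdft1, the 8 genes with the smallest p for evacetrapib and for genotype, 5 for the interaction and any called gene. Other genes of the pathway are not reported here.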

Additional observations from a re-analysis of the deposited data

Results flagged for a closer look

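Of 128 sets of 4 mice (32 genes in 4 groups), 5 held a mouse that stood apart by Dixon's test at 95%, and chance gives about 1 in 20. Mvk was at 18.6 CPM in CETPtg vehicle mouse S4, with 21.2 to 21.5 CPM in the other 3. Lss was at 53.8 CPM in APPtg/CETPtg vehicle mouse S5, with 42.8 to 43.8 CPM in the others, and at 40.3 CPM in APPtg/CETPtg evacetrapib mouse F, with 42.9 to 43.1 CPM in the others. Mbtps1 was at 145 CPM in APPtg/CETPtg vehicle mouse S6, with 105 to 111 CPM in the others. Cyp46a1 was at 242 CPM in CETPtg evacetrapib mouse D, with 266 to 270 CPM in the others. The cause of these values was not tested. No gene of the 32 passed the test of the difference between the evacetrapib effects in the genotypes.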

How the results depend on the processing

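No gene of the 32 was called for evacetrapib, in either genotype or for the interaction under any of the 26 or 27 alternatives. For genotype over all mice, 12 genes were called. There were 5 with GC and length trends removed (7.87% of all genes) and 3 with the oligodendrocyte marker term. Leaving out 1 mouse gave 8 to 15, with 8 without F, S6 or S1 (A to D and E to H are the CETPtg and APPtg/CETPtg evacetrapib mice, S1 to S4 and S5 to S8 the vehicle mice in the same order). Under vehicle, 7 were called. There were 13 by DESeq2's Wald test, 14 at an adjusted p of at most 0.1, and 4 with GC and length trends removed (4.14% of all genes). With the oligodendrocyte term there was 1, and without 1 mouse there were 4 to 8 (4 without S6, S1 or S3). Under evacetrapib, 2 were called. There were 3 at an adjusted p of at most 0.1 and 1 without a filter on low counts. There were 0 with only the 8 mice compared, with the GC and length trends removed (0.747% of all genes) or with the oligodendrocyte term. Without 1 mouse there were 0 to 2 (0 without F, H, A, C or D, and 1 without E or G). Where no share of all genes is given here, a changed count cannot be told apart from a changed share of all genes called. Mvk and Pmvk were called over all mice under each of 25 alternatives. The cause of these changes was not tested. Ggps1 under evacetrapib changed sign from -0.0015 to 0.0012 with DESeq2 size factors, 0.0011 by DESeq2's Wald test and 0.0051 with GC and length trends removed, and ranged from -0.019 to 0.028 without 1 mouse, never called. The labels give no replicate numbers shared between groups. With the mouse numbers of the table's header as a replicate block, 12, 9 and 2 genes were called for genotype over all mice, under vehicle and under evacetrapib. Same-numbered evacetrapib and vehicle mice of a genotype correlated at -0.14 to 0.050 in their deviations from group means. Differently numbered mice were not compared, so whether the numbers pair mice was not tested. The libraries' Illumina numbers cannot be told apart from the groups, and the median standard error of the 32 log2 fold changes, 0.050 for evacetrapib over all mice, limits what could be detected.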
